A study of Mus musculus with 8 samples.

Results

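The Runx and Tead factor genes are the loci of 2 families of DNA-binding proteins that work beside the myogenic regulators in skeletal myoblasts. They were Runx1, Runx2, Runx3, the gene of the Runx partner Cbfb, and Tead1, Tead2, Tead3 and Tead4, 8 of the 22225 protein-coding genes in the GENCODE annotation. Every called myogenin or p300 peak within 50 kb of one of these gene bodies was taken, which gave 123 peaks from 4 peak lists. The families were chosen by name and not by their peak counts, although earlier results of these data were known.

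The peaks came from ChIP-seq in C2C12 cells, an established mouse myoblast line. All cultures were moved from growth medium to differentiation medium with low serum and kept in it for 24 h. Control cells received no bexarotene, and treated cells received it at 50 nM over the same 24 h. Bexarotene is a selective agonist of RXR, the nuclear receptor that pairs with many others. Chromatin was precipitated with antibodies to myogenin, a muscle-specific basic helix-loop-helix factor that binds E-boxes, or to p300, an acetyltransferase that marks active enhancers. Each condition and factor had 1 library, so no difference between conditions could be tested against replicate error and no p-value is given. C2C12 is a single clonal line, and no gene was modified in any group.

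Runx proteins bind a TGTGGT core through the Runt domain, and Cbfb, which does not touch DNA itself, stabilises that contact. Runx1 is best known from blood formation, Runx2 from bone and Runx3 from neurons and T cells, and each of the 3 genes has a distal and a proximal promoter. Tead proteins bind GGAATG, the MCAT element of many muscle promoters, and need a cofactor such as Yap1, Wwtr1 (Taz) or a Vgll protein. Yap1 and Wwtr1 are held out of the nucleus by the kinases of the Hippo pathway. Tead4 is known as a direct target of the myogenic factors in differentiating myoblasts.

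The control and bexarotene lists held 5912 and 6642 myogenin peaks and 22051 and 9154 p300 peaks in the whole genome. The p300 list of treated cells was 0.415 times as long as that of control cells, and the myogenin list was 1.12 times as long. The lists give positions only, and the depth of each single library is not given in the sources used here. A difference in occupancy and a difference in depth or in the reach of the peak calling cannot be told apart from them. Of 10 genes that mark skeletal muscle, 8 had a myogenin peak within 50 kb in control cells and 7 in treated cells, against 32.4% and 33% of all protein-coding genes. Ckm and Mef2c had none in either list. Of 6 genes that mark other cell types, 1 and 2 had such a peak. A p300 peak was near 7 muscle genes in each condition and near 4 and 1 of the others, against 53.8% and 35.2% of all genes.

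Windows, each reaching 100 bases to either side of a center, are printed for a choice of the myogenin and p300 regions. They are not a random sample, since each holds an E-box, while some regions at these loci hold none. Capitals mark the E-box cores CAGCTG and CACCTG or CAGGTG, the Runx core TGTGGT, the Tead core GGAATG and the AP-1 type site TGAGTCA or TGACTCA, each read on both strands, so that ACCACA and CATTCC also stand in capitals. Among all myogenin peaks, 64.7% in control cells and 76.4% in treated cells held such an E-box within 100 bp of the center. For the p300 lists the shares were 32.4% and 39.1%. Runx cores stood in 25.7% and 29.6% of all myogenin peaks, control first, and Tead cores in 16.7% and 19.2%. The windows are given on the plus strand of mm9, and a match is only a string of letters in the window. The first 4 come from the Runx1, Runx2 and Cbfb loci, at chr16:92827985-92828185, chr16:92834265-92834465, chr17:44645359-44645559 and chr8:107685234-107685434.
Runx1 upstream, myogenin shared: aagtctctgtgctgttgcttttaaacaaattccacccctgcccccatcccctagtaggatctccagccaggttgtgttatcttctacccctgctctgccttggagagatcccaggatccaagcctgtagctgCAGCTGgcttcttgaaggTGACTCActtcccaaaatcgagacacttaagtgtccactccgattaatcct
Runx1 upstream, myogenin unique to bexarotene: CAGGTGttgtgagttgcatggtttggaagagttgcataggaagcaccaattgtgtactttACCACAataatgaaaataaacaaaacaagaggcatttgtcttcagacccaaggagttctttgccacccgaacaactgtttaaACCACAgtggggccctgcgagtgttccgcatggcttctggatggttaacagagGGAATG
Runx2 intron, myogenin shared: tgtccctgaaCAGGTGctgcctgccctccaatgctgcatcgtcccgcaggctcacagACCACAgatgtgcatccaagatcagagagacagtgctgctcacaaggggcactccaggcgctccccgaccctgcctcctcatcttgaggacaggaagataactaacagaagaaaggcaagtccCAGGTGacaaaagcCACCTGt
Cbfb upstream, myogenin unique to bexarotene: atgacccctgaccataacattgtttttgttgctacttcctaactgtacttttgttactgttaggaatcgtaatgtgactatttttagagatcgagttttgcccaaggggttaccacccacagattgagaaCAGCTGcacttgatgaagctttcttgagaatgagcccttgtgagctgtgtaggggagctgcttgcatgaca

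The Runx1 windows differed in the cores they held besides the E-box. The shared one held 1 AP-1 type site 12 bp from its CAGCTG. The one unique to bexarotene held 2 Runx cores and 1 Tead core, the nearest of them 54 bp from its E-box. In the Runx2 window a pair of E-boxes lay 8 bp apart. The next windows are from Runx3, at chr4:134702740-134702940 and chr4:134651708-134651908, and are shown because the first carried E-box, Runx and Tead cores together and the second a pair of CAGCTG cores 10 bp apart.
Runx3 intron, myogenin shared: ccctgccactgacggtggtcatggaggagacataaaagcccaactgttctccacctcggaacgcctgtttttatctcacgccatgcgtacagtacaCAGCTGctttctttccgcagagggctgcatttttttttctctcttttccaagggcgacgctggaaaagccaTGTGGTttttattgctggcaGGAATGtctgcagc
Runx3 upstream, myogenin unique to bexarotene: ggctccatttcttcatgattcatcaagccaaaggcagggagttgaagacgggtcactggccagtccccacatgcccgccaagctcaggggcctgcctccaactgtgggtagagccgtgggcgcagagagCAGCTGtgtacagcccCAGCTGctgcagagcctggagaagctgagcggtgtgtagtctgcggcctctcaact

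The Tead windows lie at chr7:119840430-119840630 and chr7:119904343-119904543 in Tead1 and at chr6:128186673-128186873 and chr6:128246034-128246234 in Tead4. They show the range from a myogenin region with 2 Tead cores to a p300 region in which a tight pair of E-boxes was the only match.
Tead1 intron, myogenin unique to control: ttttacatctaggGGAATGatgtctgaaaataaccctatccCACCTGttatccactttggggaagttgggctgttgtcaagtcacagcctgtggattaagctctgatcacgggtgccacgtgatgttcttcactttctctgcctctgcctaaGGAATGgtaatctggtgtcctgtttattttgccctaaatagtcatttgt
Tead1 intron, p300 shared: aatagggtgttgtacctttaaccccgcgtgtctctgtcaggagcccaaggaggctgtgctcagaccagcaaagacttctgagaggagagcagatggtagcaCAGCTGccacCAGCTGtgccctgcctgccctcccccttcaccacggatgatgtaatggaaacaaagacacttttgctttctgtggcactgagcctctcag
Tead4 intron, myogenin shared: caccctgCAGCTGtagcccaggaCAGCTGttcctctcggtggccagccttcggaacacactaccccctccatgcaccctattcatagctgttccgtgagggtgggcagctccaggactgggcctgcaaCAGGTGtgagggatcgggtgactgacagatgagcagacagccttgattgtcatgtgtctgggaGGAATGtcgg
Tead4 intron, myogenin unique to bexarotene: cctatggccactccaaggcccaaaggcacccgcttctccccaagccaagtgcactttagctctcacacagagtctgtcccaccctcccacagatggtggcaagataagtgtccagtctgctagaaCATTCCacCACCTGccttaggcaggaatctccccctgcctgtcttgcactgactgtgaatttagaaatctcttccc

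The pair of CAGCTG cores in the Tead1 p300 window was separated by 4 bp. In the shared Tead4 window, 2 of the 3 E-boxes were 10 bp apart. The Tead4 window unique to bexarotene had its Tead core, read on the minus strand, 2 bp from its E-box.

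Each of the 4 lists had at least 1 peak near 7 of the 8 genes. Among all protein-coding genes the share with a peak was 32.4% for control myogenin, 33% for bexarotene myogenin, 53.8% for control p300 and 35.2% for bexarotene p300. The windows of the 8 genes were longer than usual, with a median of 167 kb against 116 kb. Per Mb of window, the 8 loci carried 10.1 and 13.97 myogenin peaks in control and treated cells, where the pooled windows of all genes carried 4.56 and 4.57. The density of p300 peaks was 30.2 and 14.5 per Mb, against 10.9 and 4.48. Taken as a sum, the loci stood above the pooled density in each list, but not every gene did. The control p300 density was 6.79 per Mb at Cbfb, 8.48 at Tead2 and 0 at Tead4, and 70.9 and 35.8 at Runx1 and Runx2.

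The 8 loci held 18 myogenin peaks in control cells and 25 in treated cells, a ratio of 1.39 against 1.12 for the whole lists. This excess depended on the window, since within 100 kb the counts were 28 and 30. For p300 the 8 loci held 54 and 26 peaks, a ratio of 0.481 against 0.415. The Runx and Cbfb loci together had 8 and 12 myogenin peaks, and the Tead loci had 10 and 13. For p300 the counts were 42 and 16 near Runx and Cbfb and 12 and 10 near Tead. Per Mb of window, which allows for their unequal length, the Runx and Cbfb loci had 7.63 and 11.4 myogenin peaks and 40.1 and 15.3 p300 peaks, and the Tead loci had 13.5 and 17.5 myogenin peaks and 16.2 and 13.5 p300 peaks. By pooled density, Runx and Cbfb thus had more p300 peaks and Tead more myogenin peaks in each condition, but single genes weighed heavily. In treated cells the p300 density was 30.8 at Runx1 but 9.55 at Runx2, 12.7 at Runx3 and 0 at Cbfb. The myogenin density in treated cells was 39.7 at Tead4 but 12.2 at Tead1, 17.0 at Tead2 and 0 at Tead3. The plot of peak counts shows that Runx1 and Runx2 held most of the control p300 peaks.

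**Figure D1:**
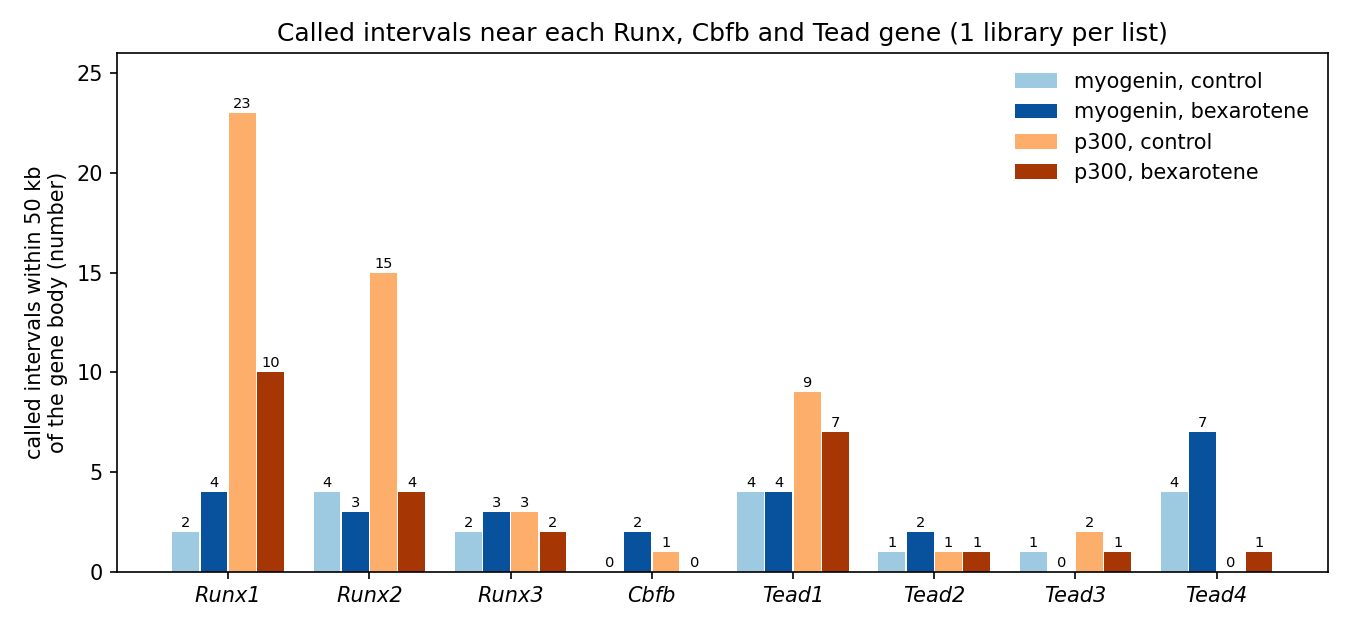
Number of called peaks (vertical axis) within 50 kb of each gene body (horizontal axis) in the 4 peak lists, with 1 library per bar and the count printed above it. Runx1 had 23 control p300 peaks, and Tead4 had 7 bexarotene myogenin peaks and no control p300 peak.

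Peaks of the same factor that overlapped by at least 1 bp between conditions were merged into a region, called shared, while a region with peaks of 1 condition was called unique to that condition. The 8 loci had 32 myogenin regions, of which 7 were unique to control, 11 were shared and 14 were unique to bexarotene. In percent these were 21.9% (95% Wilson interval 11.02 to 38.8), 34.4% (20.4 to 51.7) and 43.8% (28.2 to 60.7). Over the 9553 myogenin regions of the genome the shares were 30.6%, 31.3% and 38.2%. Each genome share lay within the interval of the 8 loci, and the intervals cover counting error only, not the variation between cultures.

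Of the 58 p300 regions, 32 were unique to control, 22 were shared and 4 were unique to bexarotene. The shares were 55.2% (42.5 to 67.3), 37.9% (26.6 to 50.8) and 6.90% (2.71 to 16.4). Over the 23903 p300 regions of the genome they were 62.1%, 30.1% and 7.76%. The makeup of the p300 regions at the 8 loci was thus not distinguishable from that of the genome at this number of regions. The 4 regions unique to bexarotene lay at Runx1, Runx2, Tead1 and Tead4, 1 each, and all 4 had 158 bp, the smallest length in that list and that of 80.5% of such peaks in the genome.

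**Figure D2:**
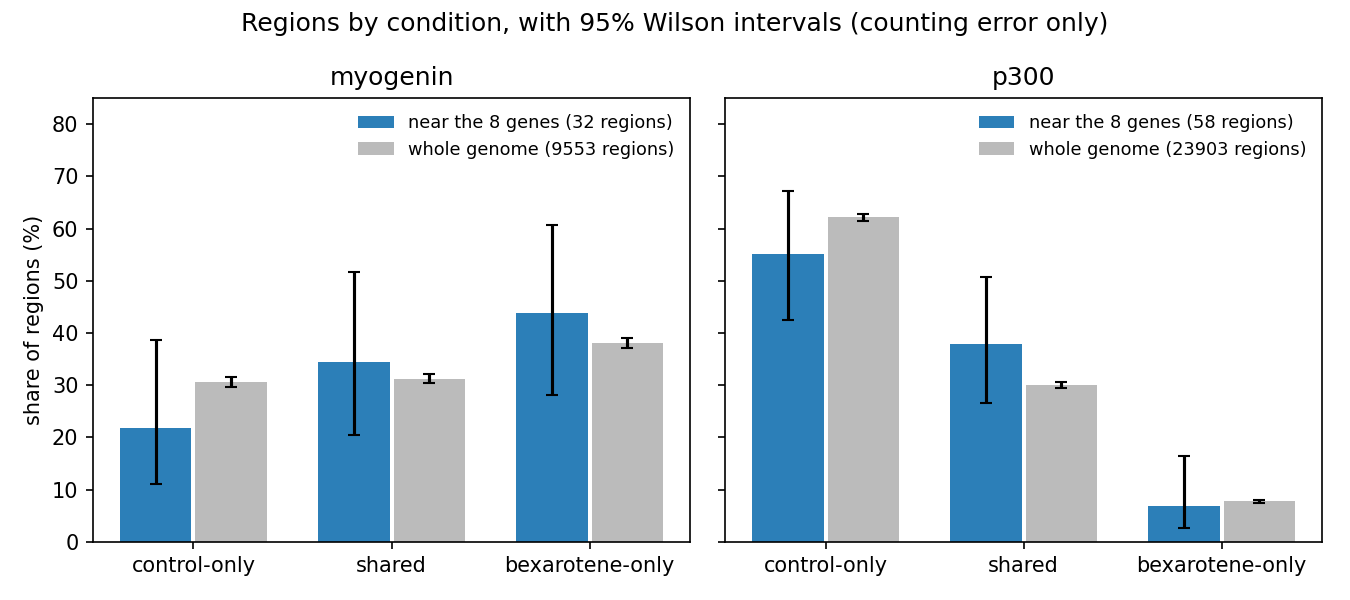
Share of merged regions (percent) unique to control, shared, or unique to bexarotene, near the 8 genes (blue) and in the whole genome (grey), with bars for the 95% Wilson interval of the counts. Every genome share falls within the interval of the 8 genes, with 14 of 32 myogenin regions and 4 of 58 p300 regions unique to bexarotene.

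Peak length was the only other measure that the lists allowed. Near the 8 genes, shared myogenin peaks had a median of 299 bp in control cells and 265 bp in treated cells, and the unique peaks had medians of 172 and 168 bp, which are the smallest lengths of the 2 lists. For p300 the shared peaks had medians of 336.5 and 207 bp. The p300 peaks unique to control had a median of 208.5 bp, and 12 of the 32 had the smallest length, against 46.2% in the genome. In each whole list, too, shared peaks had a longer median than unique ones, and the smallest length was that of 75.6% of the control myogenin peaks with no bexarotene counterpart and of 69.7% of the bexarotene ones with no control counterpart.

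Most regions were distal. Of the 32 myogenin regions, 22 lay in a gene body, 8 upstream and 2 downstream, and the median distance to the nearest annotated start of the same gene was 16.2 kb, with 18 regions beyond 10 kb. Of the 58 p300 regions, 43 lay in a gene body, 7 upstream and 8 downstream, with a median distance of 44.7 kb and 50 regions beyond 10 kb. The share of peaks within 1 kb of any protein-coding start was 16.7% (5.84 to 39.2) for control myogenin and 8% (2.22 to 24.97) for bexarotene myogenin, against 24.2% and 12.5% in the whole lists. It was 5.56% (1.91 to 15.1) for control p300 and 11.5% (4.003 to 28.98) for bexarotene p300, against 11.02% and 12.4%. Within 1 kb of a start of the gene itself lay 2 myogenin regions, at Runx1 and Tead4, and 2 p300 regions, both at Runx1.

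**Figure D3:**
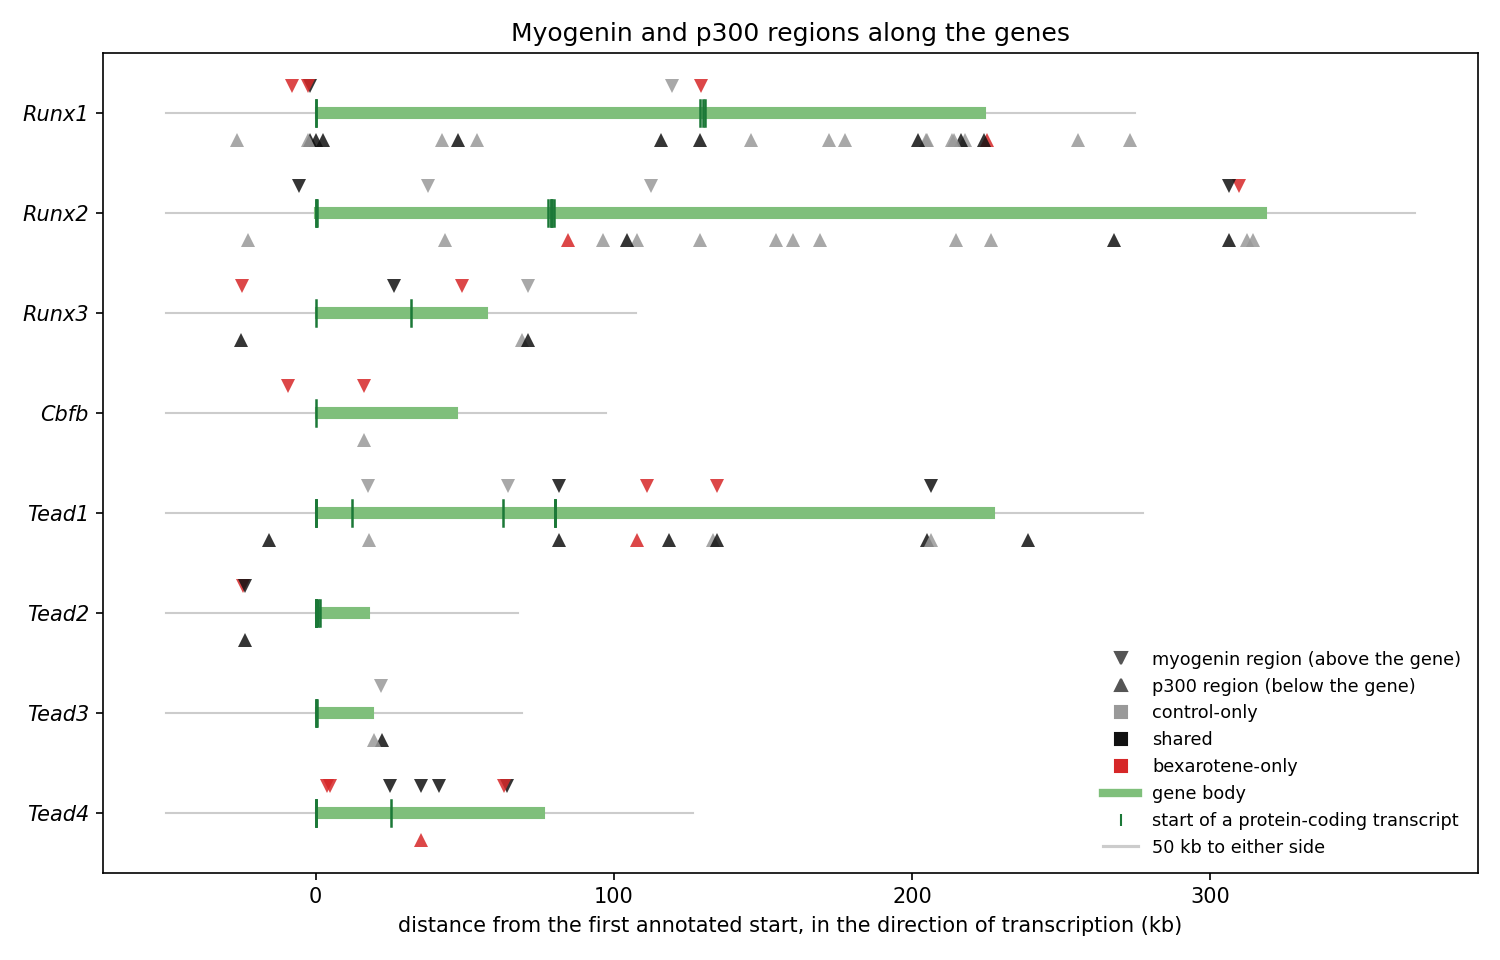
Position of each myogenin region (triangles above the gene) and p300 region (triangles below) as distance in kb from the first annotated start, drawn in the direction of transcription. Grey marks regions unique to control, black shared and red unique to bexarotene, green bars are gene bodies and green ticks are starts of protein-coding transcripts. The 7 myogenin regions of Tead4 all lie in its body, and the 24 p300 regions of Runx1 spread from 26.4 kb before its distal start to 273 kb beyond it.

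Runx1 (ENSMUSG00000022952.9, chr16:92601712-92826311, minus strand) had 2 control and 4 bexarotene myogenin peaks, and 23 control and 10 bexarotene p300 peaks. For control p300, 10 of the 22225 protein-coding genes, Runx1 included, had at least as many peaks, which is 0.0450%. Per Mb of window Runx1 ranked lower, with 201 genes (0.904%) at least as dense. Its 24 p300 regions were 14 unique to control, 9 shared and 1 unique to bexarotene, and 18 of them lay in the gene body. The 5 myogenin regions were 1 unique to control, 1 shared and 3 unique to bexarotene.

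At the proximal promoter of Runx1 a shared p300 region (chr16:92696560-92697947, intron 2 of the longest transcript) was centered 0.32 kb from the nearest start. It was 1388 bp long in control cells, and 11 of the 22051 peaks in that list, itself included, were at least as long. In treated cells the peak was 655 bp long, and 61 of 9154 peaks were at least as long. A myogenin region unique to bexarotene (chr16:92697053-92697220) lay inside the merged p300 region, 0.44 kb from the start. This myogenin region overlapped the p300 peak of treated cells (chr16:92697109-92697763) only in part. It held 1 E-box within 50 bp of its center. In control cells the nearest myogenin peak was 9.23 kb upstream of that start, at chr16:92706718-92706889, with no E-box within 100 bp and 1 Runx core.

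At the distal promoter of Runx1 a shared p300 region (chr16:92826059-92826350) lay over exon 1. It held 3 Runx cores within 100 bp of the center, a number reached by 0.639% of all control and 0.655% of all bexarotene p300 peaks. No other p300 peak at the 8 loci had as many. A pair of the cores formed a tandem with a gap of 2 bp, 20 to 33 bp downstream of the first annotated start. It is shown in a stretch of 30 bases because it is the closest pair of Runx cores in this region (plus strand, chr16:92826270-92826299, cores in capitals).
Runx1 exon 1: acccaactTGTGGTtcTGTGGTtgtttatg

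Upstream of the distal promoter, myogenin and p300 regions lay side by side. A shared myogenin region (chr16:92827953-92828217, 1.77 kb upstream) fell wholly within a shared p300 region (chr16:92827836-92828369), with centers 17 bp apart. This was the first of the printed windows. At 2.51 kb upstream a myogenin region unique to bexarotene (chr16:92828741-92828908) fell within a p300 region unique to control (chr16:92828620-92828982), so that the factors were called there in opposite conditions. The region at 8.05 kb upstream (chr16:92834259-92834471), also unique to bexarotene, overlapped no p300 peak. Its window held 2 Runx cores.

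The remaining shared p300 regions of Runx1 lay inside the gene, and 1 covered part of exon 8 (chr16:92602012-92602196). That at chr16:92609683-92610293 in intron 7 had 611 bp in control cells and 383 bp in treated cells. Others lay in intron 6 (chr16:92624256-92624598) and intron 2 (chr16:92710314-92710761, chr16:92778279-92778509 and chr16:92823851-92824105). A pair of p300 regions beyond the 3′ end, both unique to control, were nearer to a start of Clic6 than to any start of Runx1.

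Runx2 (ENSMUSG00000039153.9, chr17:44632936-44951746, minus strand), the master regulator of osteoblasts, had 4 and 3 myogenin peaks and 15 and 4 p300 peaks. Its 16 p300 regions were 12 unique to control, 3 shared and 1 unique to bexarotene. The 15 control p300 peaks were matched or exceeded by 96 genes (0.432%), and by density by 7.82% of genes. Its 5 myogenin regions were 2 unique to control, 2 shared and 1 unique to bexarotene.

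A shared myogenin region in intron 5 (chr17:44645154-44645765) held the longest control myogenin peak at the 8 loci, with 612 bp, and 65 of the 5912 peaks in the list (1.10%) were at least as long. The bexarotene peak there had 356 bp. The region overlapped a shared p300 region (chr17:44645156-44645502) by 347 bp, and it lay 226 kb from the nearest Runx2 start, inside the longest annotated transcript. The control peak held 5 E-boxes over its length, 3 of them within 100 bp of the center. The second shared myogenin region (chr17:44956854-44957065) lay 5.38 kb upstream of the distal start and overlapped no p300 peak.

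The remaining shared p300 regions of Runx2 were at chr17:44683821-44684144 in intron 5 and chr17:44846832-44847322 in intron 3. Between its distal and proximal promoters lay 1 myogenin and 1 p300 region, both unique to control. Both were nearest to a start of Supt3h, which overlaps Runx2, at a distance of 0.22 kb for myogenin and 5.95 kb for p300. No region of either factor lay within 1 kb of a Runx2 start.

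Runx3 (ENSMUSG00000070691.4, chr4:134676567-134733905, plus strand) had 2 and 3 myogenin peaks and 3 and 2 p300 peaks. The shared myogenin region (chr4:134702709-134702971) lay in intron 1, 5.57 kb upstream of the proximal start, and overlapped no p300 peak. Upstream, 24.8 kb before the distal start, a myogenin region unique to bexarotene (chr4:134651725-134651892) overlapped a shared p300 region (chr4:134651508-134651837) by 113 bp. The p300 peak of treated cells (chr4:134651549-134651761) overlapped it over a shorter stretch. Beyond the 3′ end, the only myogenin region of Runx3 unique to control (chr4:134747661-134747832) lay within a shared p300 region (chr4:134747473-134747917). The p300 regions of Runx3 were thus all outside its body.

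Cbfb (ENSMUSG00000031885.7, chr8:107694574-107741886, plus strand) had the fewest peaks, with no control and 2 bexarotene myogenin peaks and 1 control and no bexarotene p300 peak. A gene without a peak in a list had no call there, which is not a measure of absent binding. The myogenin region upstream (chr8:107685227-107685441), 9.24 kb before the start, held the CAGCTG of the printed window. The myogenin region in intron 3 (chr8:107710658-107710869) held no E-box within 100 bp of its center. It overlapped the p300 region unique to control (chr8:107710529-107710795) by 138 bp.

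Tead1 (ENSMUSG00000055320.8, chr7:119822832-120050319, plus strand) had 4 myogenin peaks in each condition and 9 and 7 p300 peaks. The equal myogenin counts covered different places, with 2 regions unique to control, 2 shared and 2 unique to bexarotene. Its 10 p300 regions were 3 unique to control, 6 shared and 1 unique to bexarotene. In treated cells 141 genes (0.634%) had at least 7 p300 peaks, and in control cells 517 genes (2.33%) had at least 9. By density Tead1 ranked lower, with 983 genes (4.42%) and 2872 genes (12.9%) at least as dense. Of the 6 myogenin regions of Tead1, 4 overlapped p300.

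The longest bexarotene myogenin peak at the 8 loci, with 609 bp, lay in intron 2 of Tead1 (chr7:119904024-119904632), 1.28 kb downstream of the innermost start, and 62 of 6642 peaks (0.933%) were at least as long. The control peak there had 324 bp. Inside the bexarotene peak was a shared p300 region (chr7:119904321-119904566) with the E-box pair shown above. The bexarotene peak held 4 E-boxes over its length, but none within 100 bp of its center, since the 4 lay off the middle of this long peak. The second shared myogenin region (chr7:120029135-120029400, intron 10) had its center 4 bp from that of a p300 region unique to control (chr7:120029124-120029419).

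The first intron of Tead1 held a myogenin region unique to control (chr7:119840445-119840616) that overlapped a p300 region unique to control (chr7:119840452-119841046), the only such pair at the 8 loci. Its window is the one with 2 Tead cores. A myogenin region unique to bexarotene (chr7:119957489-119957656) overlapped a shared p300 region (chr7:119957326-119957652). It met the p300 peak of treated cells (chr7:119957344-119957501) only at its edge. Shared p300 regions without myogenin lay 15.8 kb upstream of Tead1 (chr7:119806875-119807257), in intron 2 (chr7:119941098-119941508), in intron 10 (chr7:120027474-120027888) and beyond the 3′ end (chr7:120061464-120061766).

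Tead2 (ENSMUSG00000030796.8, chr7:52471123-52489005, plus strand) and Tead3 (ENSMUSG00000002249.10, chr17:28468616-28487750, minus strand) are short genes with few peaks, and none of their regions had its nearest start in the gene itself. Tead2 had 1 and 2 myogenin peaks and 1 p300 peak in each condition. Its shared myogenin region (chr7:52447180-52447614) overlapped its shared p300 region (chr7:52447350-52447748) by 265 bp, 23.7 kb upstream of Tead2 and 10.9 kb from a start of Pth2. The peaks there held 5 E-boxes in control cells, level with the Runx2 peak, and 7 in treated cells, more than any other myogenin peak at the 8 loci. Tead3 had 1 and no myogenin peak and 2 and 1 p300 peaks. Its myogenin region (chr17:28465623-28465839, unique to control) and its shared p300 region (chr17:28465217-28465710) were 0.32 and 0.05 kb from a start of Rpl10a, a ribosomal protein gene.

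Tead4 (ENSMUSG00000030353.9, chr6:128174306-128250841, minus strand) stood at the other end from Runx1, with 4 and 7 myogenin peaks and 0 and 1 p300 peaks. In treated cells 153 genes (0.688%) had at least 7 myogenin peaks, and 277 genes (1.25%) had at least its density of 39.7 per Mb. All 7 myogenin regions lay in the gene body, 4 shared and 3 unique to bexarotene, and none was unique to control, a class that held 30.6% of the genome's regions. Of the 7, 5 were nearest to a start of Tead4, and those in intron 9 were nearer to a start of Gm10010.

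The shared myogenin regions of Tead4 were in intron 9 (chr6:128186578-128186968), in intron 2 (chr6:128209265-128209642 and chr6:128215319-128215543) and in intron 1 (chr6:128225734-128226139). The last lay 0.34 kb upstream of an inner start that gives a shorter Tead4 transcript. It had 406 bp in treated cells and 299 bp in control cells, and held no E-box within 100 bp of the center and 1 over its length. Those unique to bexarotene lay in intron 9 (chr6:128187459-128187626) and in intron 1, 3.59 and 4.62 kb downstream of the outer starts (chr6:128247037-128247295 and chr6:128246051-128246218). Each of the 3 held at least 1 E-box within 50 bp of its center. The single p300 region (chr6:128215274-128215431, unique to bexarotene) overlapped the shared myogenin region in intron 2 by 113 bp.

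Overlap of myogenin with p300 was found at all 8 genes, with 14 pairs in all. The share of all protein-coding genes with such an overlap was not counted, and the windows of the 8 genes were longer than usual. The count therefore cannot be read as a trait of these genes. At Tead2 and Tead3 the pair was nearest to a start of another gene, Pth2 and Rpl10a. At Cbfb the only pair joined a myogenin region unique to bexarotene with a p300 region unique to control. Of the 32 myogenin regions, 14 (43.8%, 28.2 to 60.7) overlapped p300, against 34.7% in the genome. Of the 58 p300 regions, 14 (24.1%, 15.0 to 36.5) overlapped myogenin, against 13.8%, and here the genome share was below the interval. Counting only overlaps between peaks of the same condition gave 12 of 58 (20.7%, 12.3 to 32.8), against 11.4% in the genome. Tead1 had 4 pairs, Runx1 had 3, Runx3 had 2 and each of the other 5 genes had 1. By class, 4 pairs joined shared with shared regions, at Runx1, Runx2, Tead1 and Tead2. In 3 pairs a myogenin region unique to bexarotene lay on a shared p300 region, at Runx1, Runx3 and Tead1. Myogenin unique to bexarotene met p300 unique to control in 2 pairs, at Runx1 and Cbfb, and no pair joined regions that were both unique to bexarotene. Of the 3350 pairs in the genome, these combinations made up 27.5%, 17.3%, 14.03% and 2.57%, in the order given.

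E-boxes were counted within 50 bp of the peak center. They were found in 10 of 18 control myogenin peaks (55.6%, 33.7 to 75.4) and 19 of 25 bexarotene myogenin peaks (76.0%, 56.6 to 88.5) at the 8 loci, against 48.1% and 60.6% in the whole lists. In windows 2 kb to either side the shares were 36.1% and 22%. By class, the regions unique to bexarotene held an E-box in 12 of 14 cases (85.7%, 60.1 to 96.0), and the genome share of 52.3% was below that interval. The exceptions were the region 8.05 kb upstream of Runx1 and that in intron 3 of Cbfb. Of the shared regions 8 of 11 held an E-box (72.7%, 43.4 to 90.3), against 70.1%. Of the regions unique to control 1 of 7 did (14.3%, 2.57 to 51.3), against 28.2%, and this was the Tead1 region at chr7:119887332-119887503. With 7 and 14 regions the intervals of the unique classes did not overlap at this window. Within 100 bp of the center, a window chosen for the classes after seeing the data, 4 of 7 regions unique to control (57.1%, 25.05 to 84.2) and 13 of 14 unique to bexarotene (92.9%, 68.5 to 98.7) held an E-box, against 43.5% and 68.2% in the genome, and the intervals overlapped.

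CAGCTG made up 8 of the 11 E-boxes near the center of control myogenin peaks and 16 of the 25 in bexarotene myogenin peaks (72.7%, 43.4 to 90.3, and 64.0%, 44.5 to 79.8), against 70.5% and 74.1% in the whole lists. The rest read CACCTG or CAGGTG. In p300 peaks E-boxes were found near the center in 12 of 54 and 6 of 26 peaks (22.2%, 13.2 to 34.9, and 23.1%, 11.03 to 42.1), against 19.7% and 25.4%.

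The cores of the 2 families were also counted in the peaks at their own genes. Runx cores within 100 bp of the center were found in 4 of 18 control and 3 of 25 bexarotene myogenin peaks, 22.2% (9.001 to 45.2) and 12% (4.17 to 29.96), against 25.7% and 29.6% in the lists. In p300 peaks they were found in 11 of 54 and 8 of 26, 20.4% (11.8 to 32.9) and 30.8% (16.5 to 49.99), against 31.2% and 32.8%. Tead cores were found in 3 of 18 and 3 of 25 myogenin peaks, 16.7% (5.84 to 39.2) and 12% (4.17 to 29.96), against 16.7% and 19.2%. In p300 peaks the counts were 8 of 54 and 6 of 26, 14.8% (7.70 to 26.6) and 23.1% (11.03 to 42.1), against 18.8% and 18.96%. Each list share lay within the interval of the 8 loci, so no difference in either core was detectable with these numbers of peaks.

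The p300 regions were then compared by class. Runx cores were found in 4 of 32 p300 regions unique to control (12.5%, 4.97 to 28.1) and in 8 of 22 shared ones (36.4%, 19.7 to 57.0), against 28.9% and 35.7% in the genome. AP-1 type sites were found in 13 of 32 (40.6%, 25.5 to 57.7) and 5 of 22 (22.7%, 10.1 to 43.4), against 26.97% and 29.7%. The intervals of the 2 classes overlapped for both motifs. The genome share of Runx cores lay just above the interval of the regions unique to control.

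**Figure D4:**
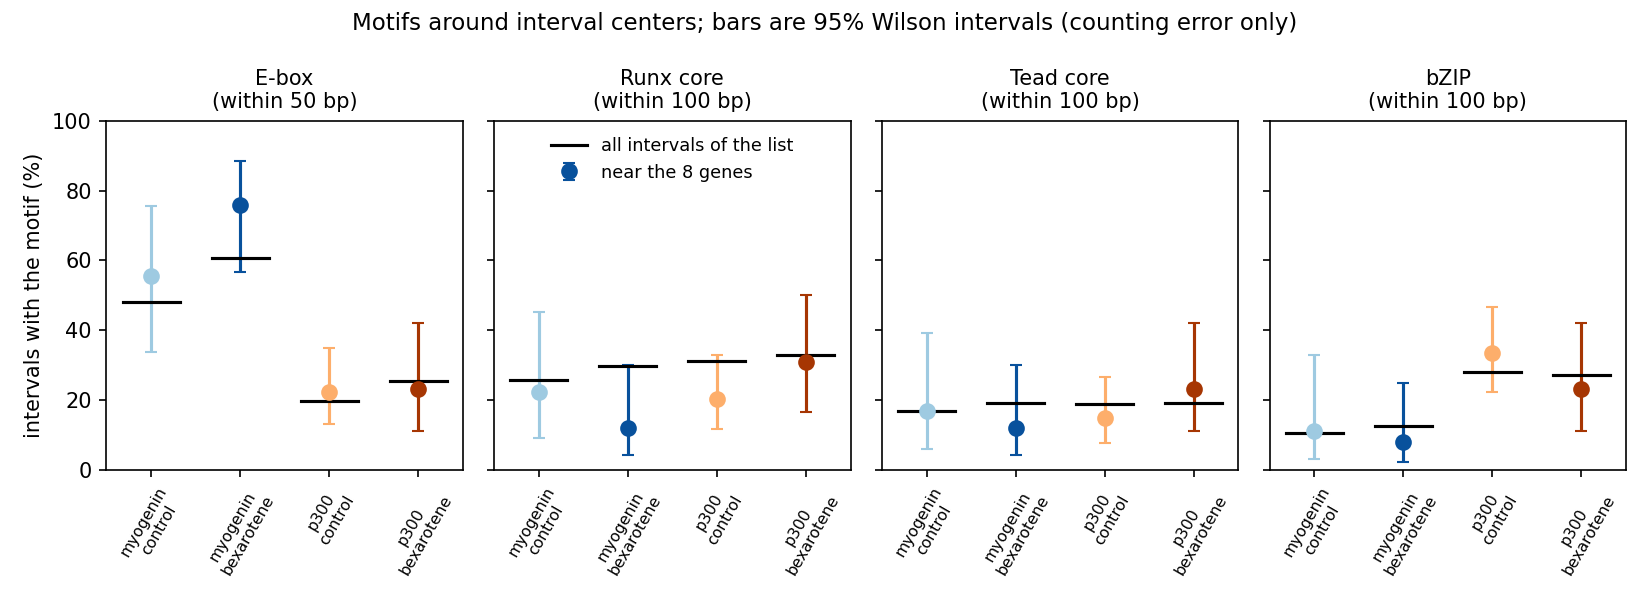
Share of peaks (percent) with an E-box within 50 bp, or a Runx core, Tead core or AP-1 type site (bZIP) within 100 bp, of the peak center in each list. Points are the peaks near the 8 genes with 95% Wilson intervals (counting error only), and black lines are all peaks of the list. The E-box share was highest in bexarotene myogenin peaks, at 76.0%, and every line falls within the interval of its point.

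Other genes with a like pattern over the 4 lists were found by the summed absolute difference in peak counts, for the 5 genes with at least 10 peaks. This compares 4 counts per gene and nothing else. Tead4 was closest to Adora1 and Mybph, each at a difference of 2, with 16 genes at 3 or less. Adora1 and Mybph are neighbouring genes that share peaks, so they are not separate cases. Runx1 was closest to AF064781 (3), with 4 genes at a difference of 4 or less, Cenpp and Col4a2 among them. Runx2 was closest to Hoxc12 (1) and Ski (2), with 9 genes at 3 or less, and Tead1 to 6430527G18Rik and Cdc42ep1 (1 each), with 5 genes at 2 or less. Runx3 tied with 7 genes at no difference.

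The partners of Tead also had peaks. Of 6 cofactor genes, 3 had a myogenin peak in control cells, 4 in treated cells, and 5 had a p300 peak in each condition. Over all protein-coding genes the shares were 32.4% and 33% for myogenin and 53.8% and 35.2% for p300, control first. Wwtr1, the coactivator Taz, had 3 and 3 myogenin peaks, all in shared regions, and 7 and 4 p300 peaks, while its relative Yap1 had no myogenin peak and 1 shared p300 region. Vgll2 and Vgll3, cofactors of Tead in muscle, had 3 and 3 and 2 and 3 myogenin peaks. The Vgll2 peaks lay in 3 regions unique to control and 3 unique to bexarotene, with none shared, where 30.6% and 38.2% of the genome's regions are of these classes. Vgll4, an antagonist of Yap1, had 1 myogenin peak, in treated cells, and Vgll1 had no peak in any list.

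The Hippo genes restrain Yap1 and Wwtr1. Of 8 such genes, 3 and 4 had a myogenin peak, against 32.4% and 33% of all genes, and the 8 together held 3 and 4 of them. That was 2.02 and 2.70 per Mb of window, against 4.56 and 4.57 over all genes. Their 7 myogenin regions were 3 unique to control and 4 unique to bexarotene, where 31.3% of the genome's regions were shared, and none overlapped p300, where 34.7% did. For p300, 6 and 3 of the 8 genes had a peak, against 53.8% and 35.2%, at 10.8 and 2.70 per Mb against 10.9 and 4.48. Lats2, a kinase that phosphorylates Yap1, had 7 control p300 peaks and 1 with bexarotene.

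Known targets of Tead and Yap1 had 25 and 18 p300 peaks over 6 genes, or 37.2 and 26.8 per Mb, against 10.9 and 4.48 over all genes. Amotl2, which binds Yap1, had 10 and 7, and Cyr61, a secreted matrix protein, had 5 and 5, all in shared regions. Ctgf and Amotl2 had no control and 2 bexarotene myogenin peaks each, and Cyr61 had 1 and 3. Ankrd1 had 1 and 1, while Ajuba had 2 and 1 and Axl had 1 and 0. Of the 6 genes, 4 and 5 had a myogenin peak, against 32.4% and 33% of all genes.

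Corepressors and a kinase that act with Runx proteins were mixed. Of 8 genes, 5 and 4 had a myogenin peak, against 32.4% and 33% of all genes, and 7 and 4 a p300 peak, against 53.8% and 35.2%. Per Mb of window the list held 9.37 and 9.99 myogenin peaks, against 4.56 and 4.57 over all genes. For p300 it held 18.1 and 3.75, against 10.9 and 4.48. Cbfa2t3 (Mtg16) had 6 and 8 myogenin peaks, of which 5 regions were shared, against 2 and 1 p300 peaks. Tle3, a Groucho corepressor, had 3 and 5 myogenin peaks, and its 10 control p300 peaks had no counterpart with bexarotene, where 62.1% of the genome's p300 regions were unique to control. Hipk2 had 7 and 1 p300 peaks and no myogenin peak, and Runx1t1 had no peak. Ajuba was found in the annotation under its older symbol Jub.

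**Figure D5:**
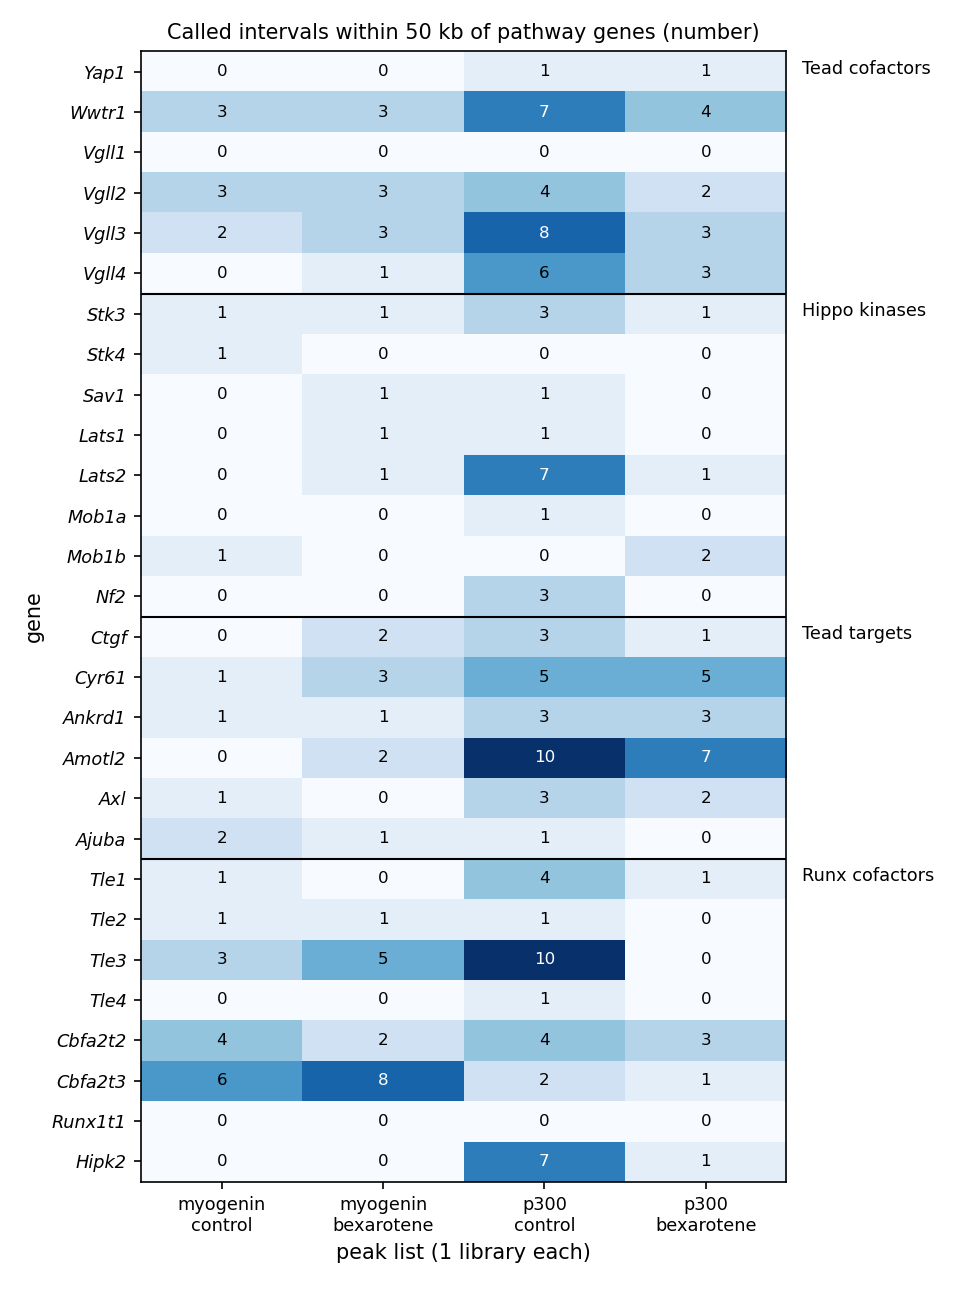
Number of called peaks within 50 kb of 28 genes, namely Tead cofactors, Hippo pathway genes, Tead targets and Runx cofactors (rows), in the 4 lists (columns, 1 library each), grouped by role. Darker cells hold more peaks, with Amotl2 and Tle3 at 10 control p300 peaks and Cbfa2t3 at 8 bexarotene myogenin peaks.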

How the data were processed

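ChIP-seq peaks for myogenin and p300 in C2C12 cells were used, with 1 library for each condition. Peak lists were at hand for 4 of the 8 samples. According to the study's methods, the authors aligned myogenin reads with BWA-MEM and p300 reads with Bowtie to mm9, removed duplicates with Picard and called peaks per library with HOMER in factor style. The deposited lists give genome positions without any read count or score, so the depth of each library is not known from them and the peak threshold could not be changed. Starts, counted from 0 in the files, are printed from 1.

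Gene bodies, exons and 45982 protein-coding starts came from GENCODE vM1, and sequences from the NCBIM37 genome, the same build. RefSeq starts, which the study used, were not used here. A peak within 50 kb of a gene body was counted for that gene. Overlap needed at least 1 bp, and overlap lengths between the factors are those of merged regions. Motifs were searched on both strands within 50 bp (E-box CASCTG) or 100 bp of the center. Shares carry 95% Wilson intervals for counting error. Printed regions are those called in both conditions, those where the factors overlap, those within 1 kb of a start of the gene and the longest peaks; a few others were chosen after their values were seen, for the class they show. Genes and lists were chosen with earlier results of these data known. The scripts ran in Python 3.11.15 with pysam 0.24.0, numpy 2.4.6 and matplotlib 3.10.9, and 7 steps were tested on simulated data with 400 items each.

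Alternatives were windows of 10 and 100 kb, reciprocal overlap of 50%, peaks longer than the smallest of their list, peaks nearest to a start of the 8 genes, other starts and distances, other motif spellings and other motif windows.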

Additional observations from a re-analysis of the deposited data

How the results depend on the processing

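No paired analysis was possible because each condition had 1 library and the labels give no replicate numbers. Leaving out peaks of the smallest length lowered the counts from 18 to 11 (control myogenin), 25 to 15 (bexarotene myogenin) and 26 to 12 (bexarotene p300), raised the share of p300 regions unique to control from 55.2% to 70.7% (genome 69.1%), and left 0 of 41 p300 regions, or 0%, unique to bexarotene (genome 3.70%). A window of 100 kb gave 28 control and 30 bexarotene myogenin peaks, so that the difference between the conditions nearly went. With reciprocal overlap of 50%, 19.4% of p300 regions were unique to bexarotene, against 15.9% in the genome. Any CANNTG counted as an E-box gave 77.8% and 96% for myogenin, control first, and 50% and 53.8% for p300, and CASCTG within 100 bp gave 77.8% for control myogenin and 40.7% for control p300. That wider window, added for the classes after seeing the data, raised the share of myogenin regions unique to control with an E-box from 14.3% to 57.1%. Runx shares were 5.56% (control myogenin), 5.56% (control p300) and 11.5% (bexarotene p300) with TGTGGTTT, 5.56%, 9.26% and 0% in the same lists with TGCGGT, and within 50 bp 4% (bexarotene myogenin) and 11.5% (bexarotene p300). Tead shares within 50 bp were 5.56% and 4% (myogenin) and 3.70% (control p300), and with GGAATGT 5.56% (control myogenin), 3.70% and 7.69% (p300). A longer motif or narrower window holds fewer matches by construction. In all, 12 peak counts, the 30 at 100 kb among them, stayed within 1.5 times the count given. A further 33 shares stayed within the 95% interval of the share given, which is wide for starts. All transcript starts gave 11.1% for control p300, and starts within 2 kb 33.3% and 16% for myogenin. Depth and peak scores, which the lists do not give, limit every count.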

Other observations

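Over whole peaks rather than their centers, 15 of 18 control and 24 of 25 bexarotene myogenin peaks at the 8 loci held at least 1 E-box (83.3%, 60.8 to 94.2, and 96.0%, 80.5 to 99.3), against 65.2% and 77.2% in the lists. At least 2 E-boxes were found in 7 and 11 of them (38.9%, 20.3 to 61.4, and 44.0%, 26.7 to 62.9), against 33.2% and 41.1%. In p300 peaks at the 8 loci 26 of 54 and 10 of 26 held at least 1 (48.1%, 35.4 to 61.1, and 38.5%, 22.4 to 57.5), against 38.1% and 40.7%. The bexarotene myogenin peak without any E-box was that in intron 3 of Cbfb, and the control ones were at Runx1, Runx3 and Tead3. These counts were made after the data had been seen, and a longer peak has more room for an E-box. Median lengths at the 8 loci were 218.5 and 213 bp for myogenin, against 172 and 189 bp in the lists. For p300 they were 257.5 and 158 bp, against 230 and 197 bp. Whether the E-box shares follow from length was not tested. Distances between the factors were measured between centers of merged regions, which need not be centers of single peaks. By that measure the Tead1 intron 10 pair was the closest of the 14 places where myogenin met p300, with 4 bp. The Tead3 pair near Rpl10a was the farthest, with 268 bp.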
